A study of Mus musculus with 3 samples.

Results

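The genes described here encode the collagens, laminins, other glycoproteins and cross-linking enzymes of the extracellular matrix, measured in striatal cells with normal and mutant huntingtin (Htt). They were chosen by name, with earlier results of these data known, as 50 genes grouped by matrix type. For each gene 1 array row was used, that of the highest mean over the 3 arrays. Of the 50 genes, 48 had a row that carries 1 gene symbol, out of 22180 genes measured in this way. Loxl2 had rows that carry more than 1 symbol and Fbn1 was matched to no row here, so neither was analysed here. Averaged over the arrays, 42 of the 48 genes reached the all-gene median, which was a log2 signal of 6.55.

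STHdh cells are immortalized striatal progenitors from knock-in mice of the strain given as C57BL6/J, in which exon 1 of Htt was humanized. The Q7-Control sample came from STHdhQ7/Q7 cells, whose alleles encode 7 glutamine repeats, treated with a control morpholino oligo. The Q111-Control sample came from STHdhQ111/Q111 cells, with 111 repeats, treated with the same kind of control oligo. The Q111-ASOs sample came from STHdhQ111/Q111 cells treated with the antisense oligos I2E3 and E3I3 (3 µM of each), which target the splice sites of Rest exon 3 and cause its skipping. All cells received 6 µM of the delivery reagent Endo-Porter and were harvested at 48 h. Each genotype is represented by 1 cell line and each condition by 1 array, so an effect of mutant Htt cannot be told apart from other differences between the lines. There is no replicate error and no p-value, and the precision of each value is limited by the number of arrays.

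Collagens are trimers of α chains. Fibrillar collagens form the fibres of connective tissue, collagen IV forms the network of basement membranes, and collagen VI forms beaded filaments around cells. Laminins are trimers of an α, a β and a γ chain that are bound by integrins at the cell surface. Fibrillins and fibulins organize elastic fibres, matricellular proteins such as tenascin-C modulate adhesion, and lysyl oxidases cross-link collagen and elastin. In the developing brain, laminins and tenascin-C are known as parts of the matrix around neural progenitors, whereas fibrillar collagens are mainly made by mesenchymal cells.

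Matrix genes differed between the cell lines in both directions, by type and by chain. A difference was counted when it exceeded 2-fold, the criterion used in the study. Among the 48 genes, 6 exceeded 2-fold in favour of Q7-Control over Q111-Control (2.53% of all genes did) and 12 in favour of Q111-Control (2.03% of all genes). Restricted to genes whose mean signal reached the all-gene median, these shares were 3.98% and 3.61%. A gene can reach this median through its higher arrays alone, and 15 of the 18 counted matrix genes lay at or over it on every array, the others being Fbn2, Lama4 and Lama2. The median absolute log2 difference was 0.70 for the 48 genes and 0.13 for all genes that reached the all-gene median. As the genes were chosen with earlier results of these data known, these shares and sizes are no independent support for an excess. Differences ran both ways, and the median signed difference was near 0, at -0.07 for matrix genes and 0.00 for all genes. Of all 22180 genes, 9630 were equal on the 2 control arrays. The mean signed difference was -0.39 for matrix genes and 0.01 for all genes.

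**Figure D1:**
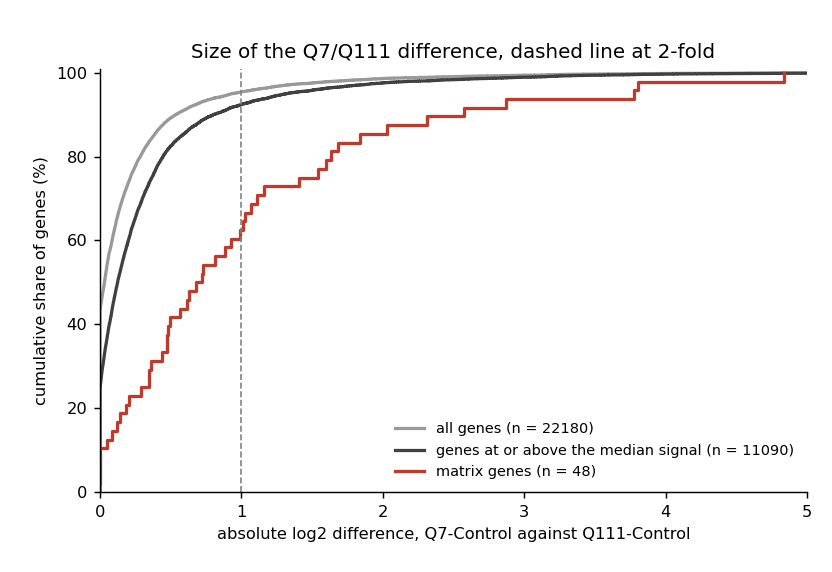
Cumulative share of genes (vertical axis, percent) by the absolute log2 difference between Q7-Control and Q111-Control (horizontal axis) for the 48 matrix genes, all 22180 genes and the 11090 genes that reached the all-gene median. The curve of the matrix genes lies to the right of both others, and 37.5% of matrix genes against 4.57% of all genes lie beyond the dashed line at 2-fold. The matrix genes were chosen with earlier results of these data known.

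For the counted genes, the 2 arrays of STHdhQ111/Q111 cells lay closer to each other than to Q7-Control. This was largely set by the selection of these genes for their distance between Q7-Control and Q111-Control. Between the 2 STHdhQ111/Q111 arrays, 10965 of 22180 genes had equal values, and Q111-ASOs is a treated sample, not a replicate. In Q7-Control, 5 of the 48 genes were more than 2-fold above both of these arrays (2.12% of all genes), namely Col4a6, Col8a1, Lama2, Lama5 and Tnc. Another 11 were more than 2-fold below both (1.94% of all genes). For the 18 genes over 2-fold apart between the lines, the 2 STHdhQ111/Q111 arrays differed by a log2 value of 0.44 at most, and this distance holds any effect of the ASOs. RNA from whole cultures was measured, so fewer cells that express a gene and less RNA per cell cannot be told apart.

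**Figure D2:**
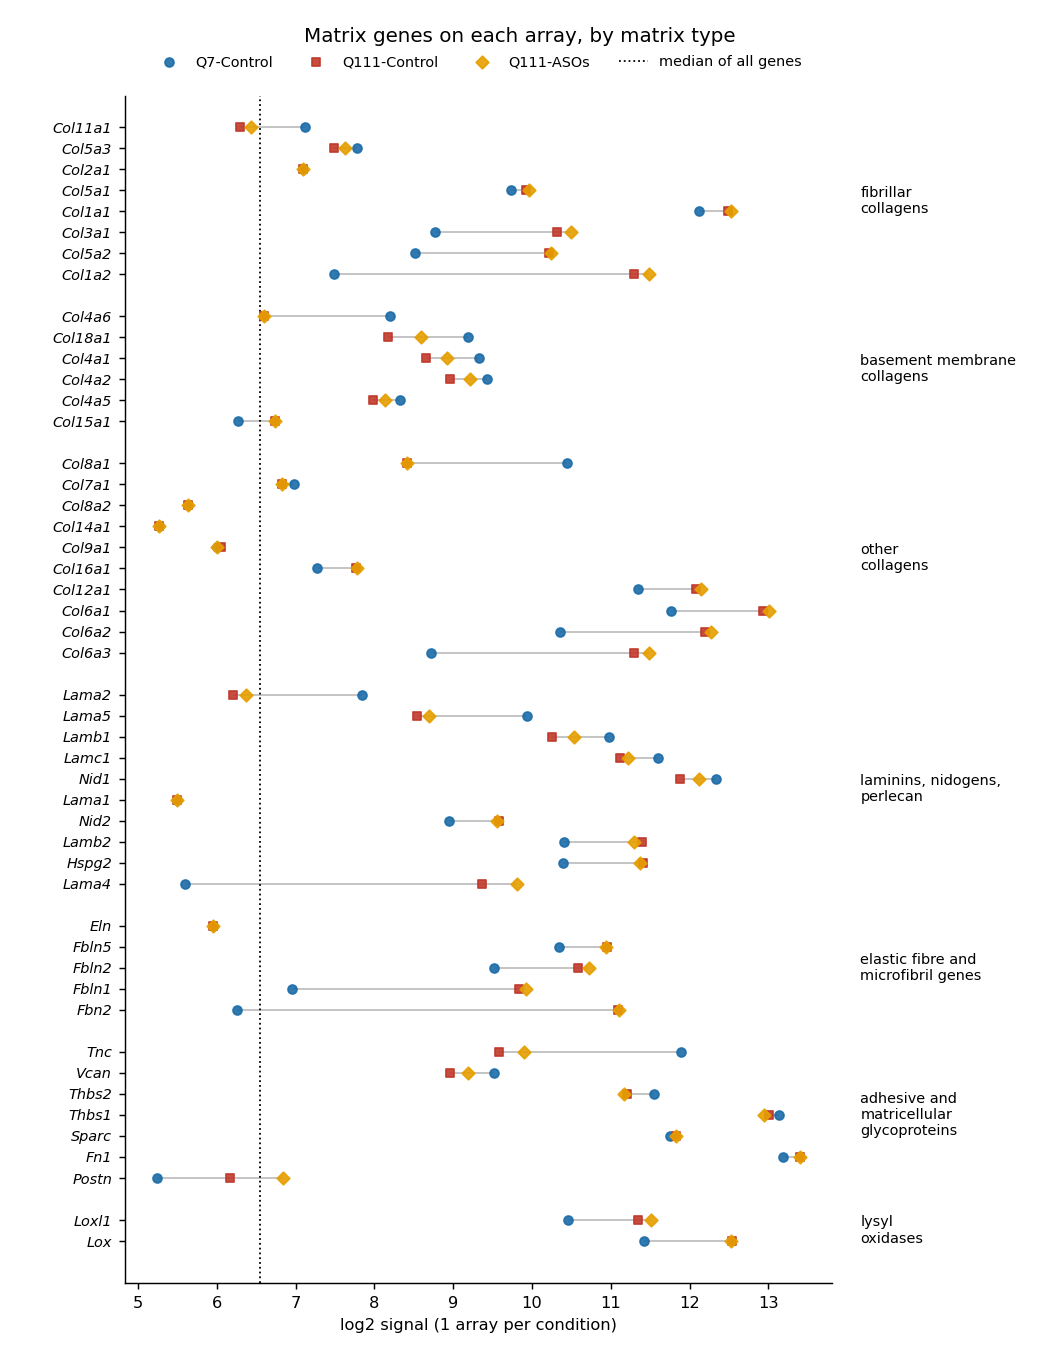
Log2 signal (horizontal axis) of each of the 48 matrix genes on the Q7-Control, Q111-Control and Q111-ASOs arrays, grouped by matrix type, with a dotted line at the median of all genes (6.55). For Fbn2, Col1a2 and Lama4 the Q7-Control point lies far to the left of both STHdhQ111/Q111 points, and for Tnc and Col8a1 it lies to the right.

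Upstream sequences are shown for 4 genes over 2-fold apart with an entry in the RefSeq promoter table used here, 3 lower in Q7-Control and 1 higher. Each is 300 bases of the mouse assembly GRCm38.p6, from 250 bases before to 50 bases after an annotated start, written 5′ to 3′ along the gene. They are not the genes with the largest differences throughout. Fbn2 and Lama4 differed more than Fbln1, Col6a3 and Tnc, and their sequences are not shown. Capitals mark matches, on either strand, to TATAAA (the TATA box), GGGCGG (the GC box bound by Sp1-type factors), CCAAT and TGANTCA (the element bound by AP-1).
Col1a2, chr6:4505368-4505667, plus strand: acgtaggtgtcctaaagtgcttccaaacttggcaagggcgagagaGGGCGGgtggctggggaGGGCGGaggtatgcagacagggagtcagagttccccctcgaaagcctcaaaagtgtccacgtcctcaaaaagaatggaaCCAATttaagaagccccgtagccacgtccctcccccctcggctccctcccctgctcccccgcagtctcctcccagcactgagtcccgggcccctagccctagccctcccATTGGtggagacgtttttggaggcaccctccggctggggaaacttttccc
Fbln1, chr15:85205699-85205998, plus strand: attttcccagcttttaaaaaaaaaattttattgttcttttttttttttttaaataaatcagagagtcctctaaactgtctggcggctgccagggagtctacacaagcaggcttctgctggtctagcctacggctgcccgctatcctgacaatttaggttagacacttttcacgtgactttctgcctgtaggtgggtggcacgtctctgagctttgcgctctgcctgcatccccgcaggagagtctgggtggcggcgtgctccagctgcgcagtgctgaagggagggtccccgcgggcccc
Col6a3, chr1:90843922-90844221, minus strand: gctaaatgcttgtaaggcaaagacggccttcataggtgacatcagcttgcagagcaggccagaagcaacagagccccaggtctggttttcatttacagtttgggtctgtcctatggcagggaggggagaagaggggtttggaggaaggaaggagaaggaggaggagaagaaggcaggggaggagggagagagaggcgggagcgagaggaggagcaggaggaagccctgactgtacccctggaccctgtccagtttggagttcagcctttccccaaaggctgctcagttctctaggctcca
Tnc, chr4:64046966-64047265, minus strand: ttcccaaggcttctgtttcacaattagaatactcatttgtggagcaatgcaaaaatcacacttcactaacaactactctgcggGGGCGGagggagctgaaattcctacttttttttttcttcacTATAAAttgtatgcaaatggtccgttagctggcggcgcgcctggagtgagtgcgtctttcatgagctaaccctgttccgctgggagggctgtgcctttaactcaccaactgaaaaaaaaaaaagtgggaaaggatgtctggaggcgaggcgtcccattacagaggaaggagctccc
Col1a2 held 2 GC boxes and 2 CCAAT matches (1 on each strand), and Tnc held 1 GC box and 1 TATA box. The Fbln1 and Col6a3 windows held none of the 4 motifs. Fbln1 and Tnc have 2 annotated windows each, of which the first listed is printed. Over all 32851 windows in the table, 35.7% held the GC box, 37.4% the CCAAT box, 13.6% the TATA box and 7.81% the AP-1 element. Of 40 windows of 33 matrix genes, 65.0% held the GC box, 40.0% the CCAAT box, 12.5% the TATA box and 2.5% the AP-1 element. The GC box was found in 6 of 10 windows of genes over 2-fold lower in Q7-Control and in 7 of 8 windows of genes over 2-fold higher. These windows belong to 8 and 6 genes, so some genes enter more than once. The 4 genes over 2-fold apart that had no window were all lower in Q7-Control. For the same 10 and 8 windows, the counts were 1 and 1 for the CCAAT box, 1 and 2 for the TATA box, and 1 and 0 for the AP-1 element. Such matches are letters in a window and were not tested as binding sites.

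Among the 8 fibrillar collagen genes, 3 were over 2-fold lower in Q7-Control and 0 higher, and their median Q7/Q111 log2 difference was -0.28. Col1a2, the α2 chain of collagen I, gave log2 signals of 7.49 on the Q7-Control array, 11.29 on that of Q111-Control and 11.49 on that of Q111-ASOs, the order kept for each gene. It was 13.9-fold higher in Q111-Control than in Q7-Control, and the only other row of the gene gave a log2 difference of -3.92 against -3.80. Col1a1, the α1 chain that assembles with Col1a2 into collagen I, had 12.12, 12.49 and 12.53 on the same arrays. The lines thus differed little in Col1a1, by a log2 value of -0.36, and the Q7/Q111 differences of these partner chains were 3.44 log2 units apart. Col3a1, the chain of collagen III, had 8.77, 10.32 and 10.49, which is 2.92-fold higher in Q111-Control. Col5a2, a chain of the fibril-nucleating collagen V, had 8.52, 10.21 and 10.24, or 3.22-fold. For these 3 genes, selected by their Q7/Q111 difference, both STHdhQ111/Q111 arrays were above Q7-Control by more than they differed from each other.
The other chains of collagen V lay within 2-fold. Col5a1 had 9.74, 9.92 and 9.96, and its other row was at 6.11 in both control arrays. Col5a3 had 7.78, 7.49 and 7.63, slightly higher in Q7-Control. Col11a1, a collagen XI chain of cartilage and other tissues, was 1.76-fold higher in Q7-Control, and Col2a1, the main collagen of cartilage, had the same value of 7.10 on all 3 arrays.

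Basement membrane collagens went the other way. In Q7-Control, 2 of 6 genes were over 2-fold higher and 0 lower, and the median Q7/Q111 log2 difference was 0.57. Col4a6, a collagen IV chain of specialized basement membranes, had 8.20 in Q7-Control and 6.60 in both Q111-Control and Q111-ASOs, a 3.03-fold difference. Col18a1, whose C-terminal fragment is endostatin, had 9.19, 8.17 and 8.59. Its Q7-Control signal was 2.03-fold that of Q111-Control but 1.51-fold that of Q111-ASOs, so its place beyond 2-fold rests on the Q111-Control array. Col4a1 and Col4a2, the chains of the common collagen IV trimer, were 1.60-fold and 1.39-fold higher in Q7-Control. Their signals were 9.33, 8.65 and 8.92 for Col4a1. For Col4a2 they were 9.43, 8.96 and 9.21, and the Q7/Q111 differences of this pair were 0.21 log2 units apart. Col4a5 was 1.27-fold higher in Q7-Control, and Col15a1 was the 1 gene of this type with a lower signal there, by a log2 difference of -0.47.

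Of the 10 other collagen genes, 3 were over 2-fold lower and 1 over 2-fold higher in Q7-Control. The 3 were the chains of collagen VI. Col6a3, the largest chain, had log2 signals of 8.72, 11.29 and 11.48, 5.95-fold higher in Q111-Control. Col6a2 had 10.35, 12.19 and 12.27, a 3.58-fold difference. Col6a1 had 11.77, 12.93 and 13.01, a 2.23-fold difference. All 3 chains, which form 1 trimer, were thus higher on both STHdhQ111/Q111 arrays, by sizes that differed between chains. The size for Col6a1 depends on the row, since its other row gave a Q7/Q111 log2 difference of -0.34 against -1.16. Col8a1, a chain of the short network-forming collagen VIII, had 10.44 in Q7-Control and 8.41 on both other arrays, a 4.08-fold difference in the opposite direction. Col8a2, its partner chain, had 5.64 on each array.
Col12a1 and Col16a1, collagens that associate with fibrils, were 1.66-fold and 1.41-fold higher in Q111-Control. Col7a1, the collagen of anchoring fibrils, had 6.98 in Q7-Control and 6.83 on both other arrays. Col9a1 lay between 6.00 and 6.05, and Col14a1 was at 5.26 throughout, both under the all-gene median.
Collagen genes that neighbour each other in the RefSeq order of protein-coding genes form 4 pairs among the 50 genes. Both Col3a1 and Col5a2 were lower in Q7-Control, as were both Col6a1 and Col6a2, whereas both genes were higher for Col4a1 with Col4a2 and for Col4a5 with Col4a6. The upstream windows of Col4a1 and Col4a2 overlap by 78 bases.

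Laminin chains differed in direction within the α and within the β subunits. Lama4, the laminin α4 chain typical of vascular and mesenchymal basement membranes, had 5.59 in Q7-Control but 9.36 and 9.81 in STHdhQ111/Q111 cells. It was 13.7-fold higher in Q111-Control than in Q7-Control, where its signal lay under the all-gene median. Lama5, the widely expressed α5 chain, had 9.94, 8.54 and 8.69, 2.65-fold higher in Q7-Control. Lama2, the α2 chain of muscle and peripheral nerve laminin, had 7.84, 6.20 and 6.37, 3.10-fold higher in Q7-Control. The Q7/Q111 log2 differences of Lama5 and Lama4 were 5.18 apart. Lama1, the α1 chain of early embryonic basement membranes, lay between 5.49 and 5.50 on the arrays.
The β chains differed in direction too. Lamb1 had 10.98, 10.25 and 10.53, 1.65-fold higher in Q7-Control. Lamb2 had 10.41, 11.40 and 11.29, 1.99-fold higher in Q111-Control and so just inside 2-fold. Lamc1, the common γ1 chain, was 1.40-fold higher in Q7-Control.
Among the linkers that join laminin to collagen IV, Hspg2, which encodes perlecan, had 10.39, 11.41 and 11.37. It was 2.02-fold higher in Q111-Control and 1.97-fold higher in Q111-ASOs than in Q7-Control, on either side of the criterion. Nid1 had 12.33, 11.88 and 12.12, higher in Q7-Control, and its other row gave a similar Q7/Q111 log2 difference (0.39 against 0.44). Nid2 was 1.55-fold higher in Q111-Control. The median log2 difference over the 10 laminin, nidogen and perlecan genes was 0.22, with 2 over 2-fold higher and 2 over 2-fold lower in Q7-Control.

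**Figure D3:**
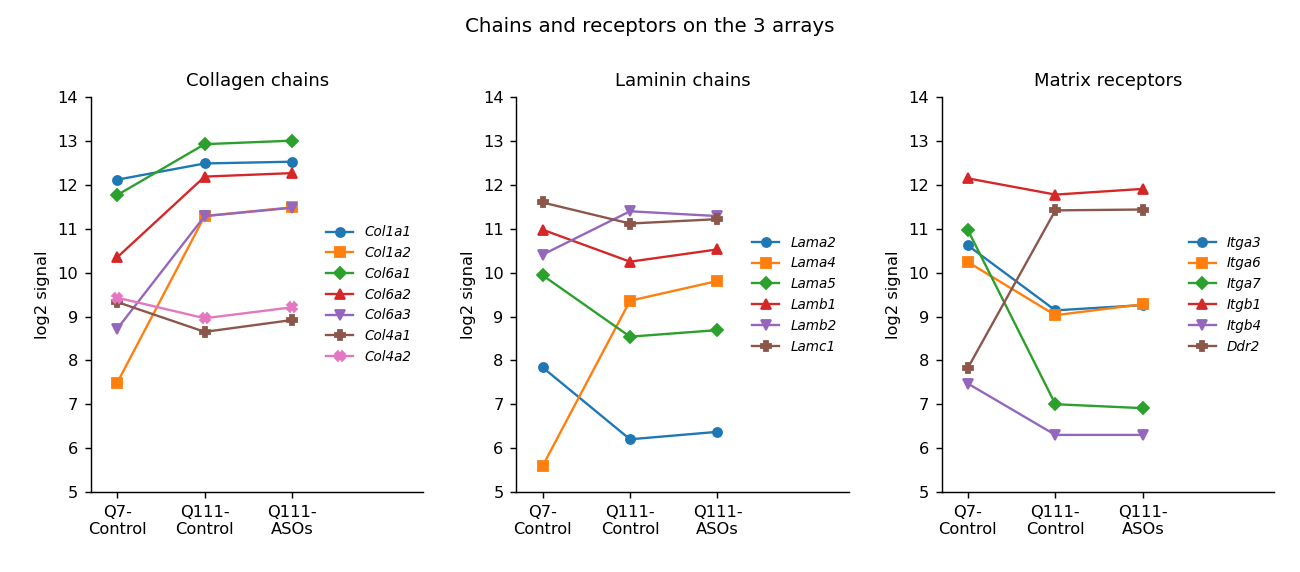
Log2 signal (vertical axis) of selected collagen chains, laminin chains and matrix receptors on the 3 arrays, 1 array per condition, with lines joining the points of each gene. The lines of Col1a2, Lama4 and Ddr2 run upward from Q7-Control to Q111-Control, those of Lama5, Lama2 and Itga7 run downward, and Q111-ASOs lies within 0.44 of Q111-Control for each of these. Heights of different genes are not comparable on these arrays.

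Of 5 elastic fibre and microfibril genes 4 had a lower signal in Q7-Control, with 3 over 2-fold lower, 0 over 2-fold higher and a median log2 difference of -1.07. Fbn2, the microfibril protein fibrillin-2 of developing tissues, had 6.25, 11.09 and 11.11. At 28.6-fold, this was the largest difference among the 48 genes, and its signal in Q7-Control lay under the all-gene median. Fbln1, or fibulin-1, had 6.96, 9.83 and 9.93, 7.30-fold higher in Q111-Control. Fbln2 had 9.52, 10.59 and 10.72, or 2.10-fold. Fbln5, a fibulin needed for elastic fibre assembly, was 1.53-fold higher in Q111-Control, and Eln, the elastin gene, had 5.95 on all 3 arrays, below the median. For the lysyl oxidases the direction was the same. Lox had 11.42, 12.54 and 12.52, 2.16-fold higher in Q111-Control, and Loxl1 had 10.46, 11.35 and 11.51, or 1.84-fold.

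Of 7 adhesive and matricellular genes, 1 was over 2-fold apart, and their median log2 difference was 0.12. Tnc, or tenascin-C, had 11.89, 9.58 and 9.90, or 4.98-fold higher in Q7-Control against Q111-Control. Postn, or periostin, had 5.24, 6.17 and 6.84, which is 1.90-fold higher in Q111-Control and 3.03-fold higher in Q111-ASOs than in Q7-Control. Both of its lower signals were under the all-gene median. The fibronectin gene Fn1 had 13.19, 13.40 and 13.40, so the 3 arrays lay within 1.15-fold of each other. Thbs1, or thrombospondin-1, had 13.13, 13.01 and 12.95. Sparc, which binds collagen, had 11.75 in Q7-Control and 11.83 on both other arrays. Thbs2 and the large chondroitin sulphate proteoglycan gene Vcan were 1.27-fold and 1.48-fold higher in Q7-Control.
No background level was measured for signals under the all-gene median, such as those of Fbn2 and Lama4 in Q7-Control or Lama2 in Q111-Control (6.20), and folds against them are lower bounds at best.

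With ASOs, none of the 48 genes was over 2-fold higher or lower than in Q111-Control, where 0.104% of all genes were higher and 0.0271% lower. A higher signal was found for 30 genes, a lower one for 10 and an equal one for 8, and the median log2 difference was 0.05. Among all genes that reached the all-gene median, 4548 were higher, 2618 lower and 3924 equal. The split by sign moved with the scaling, to 42 higher and 6 lower with each array centred on its median, and to 37 higher and 11 lower after quantile normalization. For all genes that reached the all-gene median, centring gave 9154 higher and 1936 lower, and quantile normalization 5403 higher and 5668 lower. Over 1.2-fold higher were 6 of the 48 matrix genes and over 1.2-fold lower 0. Among the 42 matrix genes that reached the all-gene median, the counts were 5 and 0, against 3.79% and 1.03% of the genes that reached the all-gene median. Postn had the largest difference, 1.59-fold, from a signal of 6.17 that was below the median. Lama4 followed at 1.36-fold, Col18a1 at 1.34-fold, Tnc at 1.25-fold and Lamb1 at 1.21-fold, with Col4a1 at a log2 difference of 0.27. The lowest difference was that of Lamb2, at a log2 value of -0.11. By type, the median was highest for the basement membrane collagens (0.21) and the laminins, nidogens and perlecan (0.13), and lowest for the adhesive genes (0.00). Col1a2, Col6a3 and Fbn2 had 1.15-fold, 1.14-fold and 1.02-fold. Across all genes the SD of the ASOs/Ctrl log2 difference was 0.13, and both comparisons share the Q111-Control array and its error. All 3 arrays gave exactly the same value for 4 matrix genes (Col2a1, Col8a2, Col14a1 and Eln), as they did for 35.5% of all genes.

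**Figure D4:**
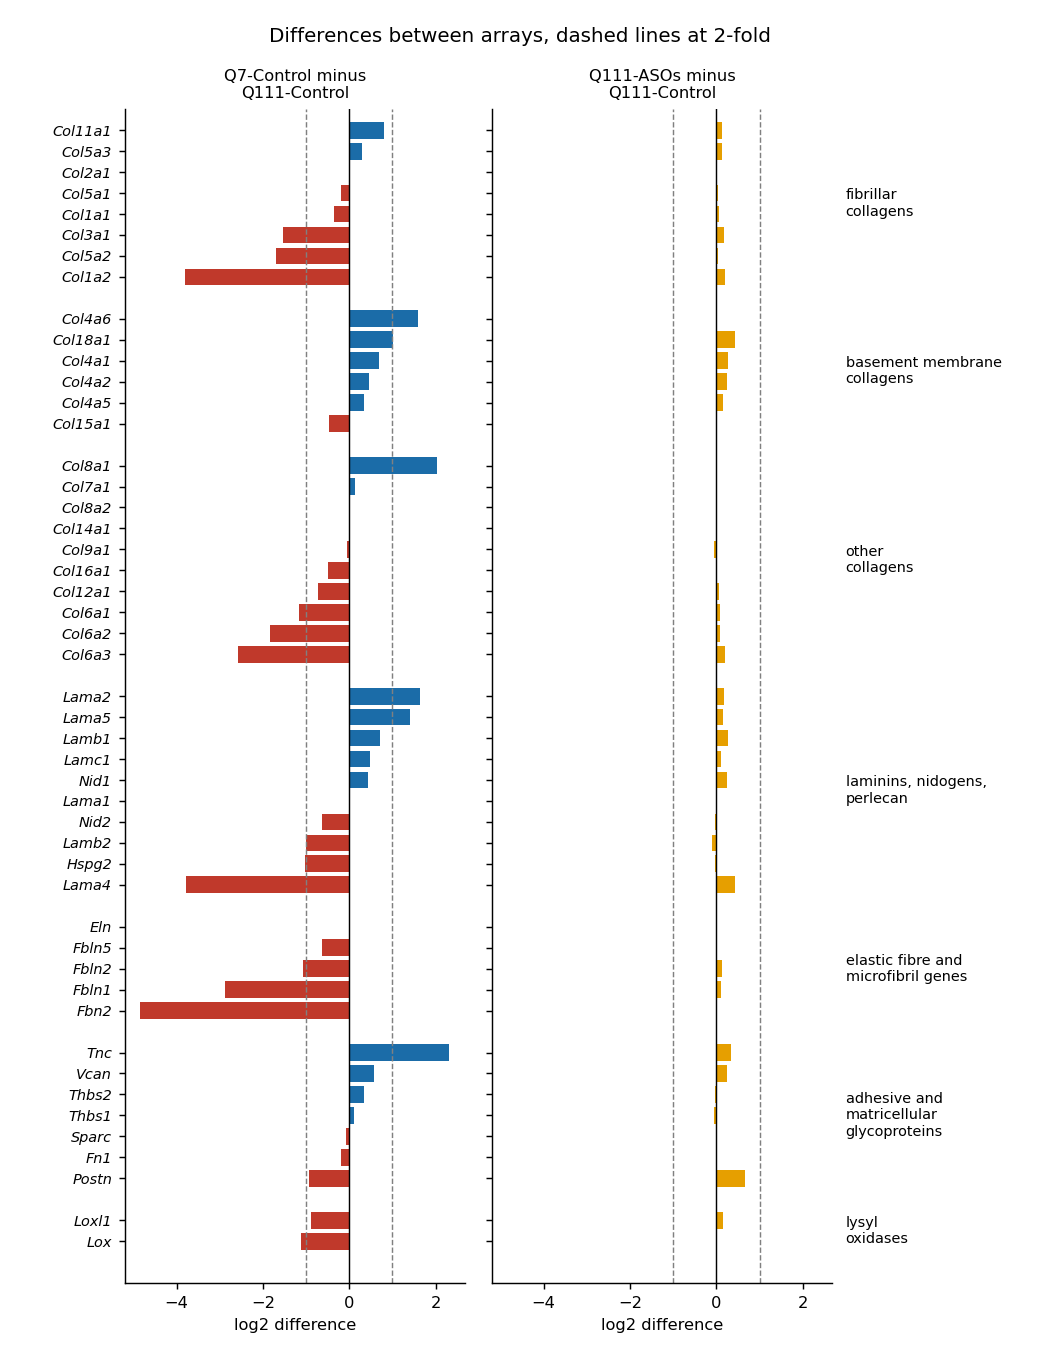
Log2 difference (horizontal axes, same scale) of each of the 48 matrix genes for Q7-Control minus Q111-Control (left) and Q111-ASOs minus Q111-Control (right), 1 array per condition, with dashed lines at 2-fold. On the left 18 bars pass the dashed lines, 12 to the left and 6 to the right, and on the right none does, the longest being Postn at 0.67.

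Receptors for the matrix were taken from lists chosen by name, also with earlier results of these data known. In Q7-Control, 6 of 18 integrin subunit genes were over 2-fold higher (2.53% of all genes) and 0 lower (2.03% of all genes), and the median log2 difference was 0.49. The same shares of all genes stand beside the counts of the lists that follow. Itga7, the laminin-binding α7 subunit, had 10.97, 7.00 and 6.91, a 15.7-fold difference. Itga3 (2.80-fold) and Itga6 (2.31-fold), which encode laminin-binding subunits too, and Itgb8 (2.50-fold), a partner of the αv subunit, were also higher in Q7-Control. With ASOs, Itga6 and Itga1 had the largest differences of this list, each 1.19-fold. Among 16 other receptor genes, 1 was over 2-fold higher and 1 over 2-fold lower in Q7-Control. Ddr2, the collagen-activated receptor tyrosine kinase, had 7.83, 11.42 and 11.44, 12.1-fold higher in Q111-Control, and the glypican gene Gpc6 was 2.08-fold higher in Q7-Control. With ASOs, Gpc1 had the largest difference, 1.13-fold.
Genes for collagen folding and processing showed smaller differences, with 1 of 24 measured genes over 2-fold higher and 2 over 2-fold lower in Q7-Control. The lysyl hydroxylase gene Plod2 was 2.21-fold higher in Q7-Control. The procollagen peptidase gene Adamts14 and the prolyl hydroxylase gene P4ha2 were 2.12-fold and 2.07-fold higher in Q111-Control. With ASOs, Plod1 had the largest difference, 1.21-fold. Of the 20 other collagen genes, 1 was over 2-fold apart, which is 5% and near the 4.57% of all genes. It was Col10a1, at 2.04-fold higher in Q111-Control, and Col25a1 had the largest ASOs/Ctrl log2 difference, -0.30. Of 21 other laminin and elastic fibre genes, 3 were over 2-fold higher and 2 over 2-fold lower in Q7-Control. The laminin-binding netrin gene Ntn4 was 4.51-fold and the hemicentin gene Hmcn1 3.28-fold higher in Q7-Control, whereas the microfibril gene Mfap5 was 3.70-fold and Emilin1, which encodes an elastic fibre glycoprotein, 2.64-fold higher in Q111-Control. Ntn4 also had the largest ASOs/Ctrl difference of this list, 1.34-fold. Signals under the all-gene median were those of Ntn4 (6.54) and Hmcn1 (5.87) in Q111-Control, and of Mfap5 (6.23) and Col10a1 (5.69) in Q7-Control. Folds against them have the limit given above for such signals.

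Among the lists of cell type markers, differences over 2-fold between the lines were most frequent for neural progenitor markers (66.7%, against 4.57% of all genes). Among 9 measured neural progenitor markers, 5 exceeded 2-fold in favour of Q7-Control and 1 in favour of Q111-Control, and the mean log2 signal of the list was 8.26, 7.04 and 7.09. Sox2 was 20.7-fold, Nes 17.5-fold and Pax6 3.07-fold higher in Q7-Control, and Slc1a3, the glutamate transporter gene of radial glia and astrocytes, was 4.43-fold higher in Q111-Control. With ASOs, Sox2 had the largest difference, 1.26-fold. In STHdhQ111/Q111 cells Nes was at 6.08 and 6.28, under the all-gene median. Averaged over the arrays, 6 of the 9 progenitor markers and 8 of 11 fibroblast markers reached this median. Fibroblast markers ran both ways, with 1 of 11 over 2-fold higher in Q7-Control (Pdpn, 10.1-fold) and 2 over 2-fold lower (Dpt, 7.21-fold, and Pdgfra, 3.31-fold higher in Q111-Control). Their mean log2 signal was 8.58, 8.76 and 8.93, and Dpt had their largest ASOs/Ctrl difference, 1.55-fold. Of 10 mural cell markers, 1 was over 2-fold apart, Acta2, at 14.1-fold higher in Q7-Control. Their mean log2 signal was 7.30, 6.93 and 6.92, and Acta2 had their largest ASOs/Ctrl log2 difference, -0.26. All 9 endothelial markers were below the median on every array, and none of these or of 9 macrophage and microglia markers was over 2-fold apart. The largest ASOs/Ctrl log2 differences of these lists were those of Esam (-0.10) and Tmem119 (0.24). Of 11 measured striatal neuron markers, 8 were below the median on all 3 arrays, and Penk was 3.88-fold higher in Q111-Control, with the largest ASOs/Ctrl log2 difference of the list, 0.27. Pax6 in Q111-Control (6.21), and Dpt (6.37) and Penk (6.00) in Q7-Control, were under the all-gene median, which limits their folds as for Nes. The part of these marker differences in the matrix values was not tested.
The gene targeted by the ASOs, Rest, had 9.16 in both controls and 9.33 in Q111-ASOs, a reading of the transcript as a whole that does not measure skipping of exon 3.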

How the data were processed

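Total RNA of 3 cultures was hybridised to 1 Affymetrix Mouse Gene ST array each. For each array row the deposited value is a log2 signal, made by the authors in Partek; how Partek was set up (release, background step, scaling, probe summary) is not given in the sources used. The log2 scale was taken from the values, which run from 2.12 to 14.10. Values were used as deposited, with array medians of 5.97, 6.03 and 6.00 over 41345 rows.

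Rows with 1 symbol (23521) were named through the platform annotation, with symbols updated by gene ID through RefSeq (23328 matched). The row with the highest mean was kept for each gene. Differences were Q7-Control minus Q111-Control (Q7/Q111) and Q111-ASOs minus Q111-Control (ASOs/Ctrl). Differences beyond 2-fold were counted, and the counting was tested on simulated data. Each counted matrix gene was named. Of each other list, up to 4 counted genes with the largest Q7/Q111 differences were named, and the gene with the largest ASOs/Ctrl difference. Integrin and extracellular matrix lists, members and markers were chosen with earlier results of these data known. Some of the other matrix genes are given in the closing section.

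As alternatives, each array was centred on its median or all were quantile normalized, genes under the all-gene median were left out, the rows of each gene were averaged, the criterion was set to 1.5-fold or 3-fold, and genes equal on all 3 arrays were dropped from the medians. Protein sequences were not analysed here. Array rows were given no coordinates, since no genome build is named for their annotation. Python 3.11.15, numpy 2.4.6, pandas 2.3.3 and matplotlib 3.10.9 were used.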

Additional observations from a re-analysis of the deposited data

How the results depend on the processing

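Without replicates, a log2 value was taken to move when it changed by 0.13 or more, the all-gene SD of the ASOs/Ctrl differences, and a count when it changed by more than 1.5 times. This SD does not measure array error, as it holds any effect of the ASOs and 10965 of 22180 genes have a difference of 0. No paired analysis was possible because a condition holds 1 array only. Values of single matrix genes were compared under 4 alternatives. Centring shifts every value by 0.06 or 0.02, under the limit of 0.13. Leaving out genes under the median changes no kept value, and averaging rows changes only genes with several rows. Many of these comparisons thus had their outcome fixed in advance, and their number does not measure stability. In all, 370 values stayed, no Q7/Q111 difference of a counted gene changed sign, and 2 moved, Col6a1 for Q7/Q111 and Col5a1 for ASOs/Ctrl, both with the mean of all rows. Col6a1 then had a Q7/Q111 log2 difference of -0.75 and left the genes over 2-fold lower. Centring, which adds 0.06 to every Q7/Q111 difference, left Hspg2 within 2-fold, so either alternative gave 11 genes over 2-fold lower, and quantile normalization kept all 18 genes. With a 3-fold criterion 7 genes were lower in Q7-Control for Q7/Q111, and against both STHdhQ111/Q111 arrays 3 were higher and 7 lower. With a 1.5-fold criterion 18 genes were lower in Q7-Control than in both arrays, and 1 gene, Postn, was higher with ASOs. The changed criterion accounts for these counts. With signals at or above the median, the median Q7/Q111 difference was -0.73 for the other collagens, 0.44 for the laminins, nidogens and perlecan, and -1.97 for the elastic fibre genes. Without genes equal on all 3 arrays it was -0.61 for the other collagens and -1.97 for the elastic fibre genes. Fewer genes enter these medians. In the lists of other genes, centring left 1 folding and processing gene over 2-fold lower in Q7-Control, and centring and quantile normalization each left 0 of the other collagen genes.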

Other observations

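Further matrix glycoprotein genes, outside the types above, differed between the lines in both directions. Among the 31 with a row, 2 exceeded 2-fold in favour of Q7-Control (2.53% of all genes) and 5 in favour of Q111-Control (2.03% of all genes). Tgfbi, which encodes an integrin-binding matrix protein induced by TGF-β, had log2 signals of 9.44, 12.73 and 12.72 in the same order of arrays, 9.77-fold higher in Q111-Control. Members of the CCN family of matricellular proteins differed in direction. Ccn5 and Ccn3 were 8.79-fold and 7.60-fold higher in Q111-Control, whereas Ccn2, or connective tissue growth factor, had 10.65, 8.75 and 8.55 and was 3.73-fold higher in Q7-Control. With ASOs, Sparcl1 had the largest difference of this list, 1.48-fold.

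A further list held 10 genes for proteoglycans that bind hyaluronan, link proteins and hyaluronan synthases. In Q7-Control, 2 were over 2-fold higher (2.53% of all genes) and 1 over 2-fold lower (2.03% of all genes). The hyaluronan synthase gene Has2 had 11.57, 9.43 and 9.81, which is 4.43-fold higher in Q7-Control. The link protein gene Hapln4 was 3.77-fold higher in Q7-Control, and Acan, the aggrecan gene, 2.60-fold higher in Q111-Control. The lower signals of both, Hapln4 in Q111-Control (6.08) and Acan in Q7-Control (5.71), were under the all-gene median. Has2 also had the largest ASOs/Ctrl difference of these genes, 1.31-fold.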
